A study of Homo sapiens with 4 samples.

Results

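The genes described here are 10 components of epidermal growth factor (EGF) receptor signalling, chosen by name: the receptors EGFR, ERBB2 and ERBB3, the ligands AREG, EREG, HBEGF, TGFA, BTC and NRG1, and the receptor inhibitor ERRFI1. All 10 were found among the 55764 gene names of the deposited expression table. RNA was sequenced in bulk from TE5, a human oesophageal squamous carcinoma cell line, in 2 groups of 2 libraries. The ETS1 libraries came from cells that stably carried human ETS1, an ETS family transcription factor, in a CMV lentiviral vector, and the control libraries from cells that carried the empty backbone of that vector. Both groups had been infected and selected. Whether the cells of a group were a pool or 1 clone, and whether the libraries numbered 1 and 2 were separate cultures, is not given in the sources used here, so p-values measure the spread between these libraries, which may be technical. Levels are in FPKM, which divides the fragments of a gene by its length and by the size of the library.

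EGF family ligands are made as membrane-anchored precursors that metalloproteases of the ADAM group cut to release the active growth factor. AREG, EREG, HBEGF, TGFA and BTC bind EGFR, while neuregulins such as NRG1 bind ERBB3 and ERBB4. ERBB2 has no known ligand of its own and acts as the partner of the other receptors, ERBB3 has a weak kinase and signals mainly through such partners, and active receptor pairs feed the RAS-ERK and PI3K-AKT cascades. In squamous epithelium this system is known for driving proliferation and wound repair.

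Stretches near the starts of 3 of the genes are shown because ERRFI1 and HBEGF were the genes of the set that changed by the main test and ERBB2 held the only long ETS match among them. The sequences are RefSeq's for GRCh38.p14, printed 5′ to 3′ on the strand of the gene, with matches to the ETS core GGAA on either strand in capitals (TTCC where the match is on the other strand). The ERBB2 stretch is 30 bases at chr17:39688063-39688092 on the plus strand. It lies before the RefSeq start and inside the ERBB2 gene as GENCODE 29 annotates it. The other stretches lie upstream of the gene in both annotations, the HBEGF stretch 222 bases at chr5:140346632-140346853 on the minus strand and the ERRFI1 stretch 250 bases at chr1:8026310-8026559 on the minus strand.
ERBB2: TTCCACTTCCGGagtaaCCGGAAGTTCCtg
HBEGF: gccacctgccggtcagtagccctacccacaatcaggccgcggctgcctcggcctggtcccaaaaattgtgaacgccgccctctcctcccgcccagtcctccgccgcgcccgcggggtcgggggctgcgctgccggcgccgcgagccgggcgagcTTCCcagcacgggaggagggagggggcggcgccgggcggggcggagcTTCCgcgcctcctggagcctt
ERRFI1: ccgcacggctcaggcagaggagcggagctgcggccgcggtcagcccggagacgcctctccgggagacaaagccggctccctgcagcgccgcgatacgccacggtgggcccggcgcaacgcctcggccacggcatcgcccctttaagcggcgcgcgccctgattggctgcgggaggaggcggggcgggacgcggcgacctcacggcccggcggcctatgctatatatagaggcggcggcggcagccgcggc
The ERBB2 stretch also capitalises 2 matches to the longer ETS site CCGGAAGT, which contains the core GGAA, on opposite strands.

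The motif search covered the 250 bases before each RefSeq start, on both strands. RefSeq windows matched 8 of the 10 genes, all but ERBB3 and NRG1, and gave 10 windows because EGFR and TGFA have more than 1 start. The core GGAA was present in 9 of these 10 windows, against 92.7% of all 35116 windows of the same length. ERRFI1, the gene that rose most clearly, was the exception with 0 matches, as are 7.26% of all windows. HBEGF had 3 matches in its 250 bases, of which the printed stretch holds 2, against a median of 3 over all windows. CCGGAAGT was present in the ERBB2 window alone, 19 and 6 bases before the start, and 3.42% of all windows hold it and 0.256% hold it at least 2 times. The AP-1 site TGANTCA, which binds FOS and JUN proteins, was present in 2 windows, 1 of EGFR and that of ERBB2, against 6.57% of all windows. That EGFR window, chr7:55109589-55109838, lies inside the annotated gene. The other EGFR window, chr7:55018767-55019016, held 0 matches to TGANTCA. A match describes letters in the window and shows no binding.

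ETS1 itself was listed at 0.491 and 0.509 FPKM in the controls and 1.84 and 1.87 FPKM in the ETS1 libraries, a log2 change of 0.93 on the log2(FPKM + 1) scale (limma, adjusted p = 0.000704), the direction its labels give. ETS1 passed the filter of a mean of 1 FPKM only through the ETS1 libraries. The log2(FPKM + 1) scale understates low genes: voom, limma's method for counts, gave 1.89 for ETS1 on reads recovered from the FPKM values, and the authors' deposited table lists 1.84. The ETS1 libraries were deeper, with 57237290 and 56470090 recovered reads against 40333279 and 44094867 in the controls, and depth and group cannot be told apart. The squamous markers KRT5, KRT14 and TP63 were at or below 0.0165 FPKM in every library and KRT4 at 0, so the keratins that define the labelled cell type were nearly absent, and 2 of 11 squamous markers reached a mean of 1 FPKM (SOX2 and KLF5). Of 11 mesenchymal and fibroblast markers 4 reached it (VIM, FN1, CDH2 and COL1A1), and their list summed to 259 to 264 FPKM in the controls and 340.5 to 340.7 FPKM in the ETS1 libraries. The squamous list summed to 11.3 to 11.7 against 14.6 to 15.3 FPKM, the epithelial list, with 3 of 11 markers at 1 FPKM or more, to 17.3 to 17.4 against 18.0 to 18.4 FPKM, and the leukocyte list to 1.38 to 1.64 against 2.31 to 2.50 FPKM. Within the epithelial list KRT8 rose (log2 change 0.62, limma, adjusted p = 0.000591) and the more abundant KRT18 fell (-0.29, limma, adjusted p = 0.00223). None of the 4 listed endothelial markers reached 1 FPKM, and they summed to 0.0604 to 0.0642 against 0.109 to 0.127 FPKM. These sums moved with the group, and their part in the results was not tested.

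Across the set, the ERRFI1 transcript was higher with ETS1, the HBEGF transcript was lower, the EGFR and ERBB2 transcripts were slightly higher without passing the main test, and the ligand genes AREG, EREG, BTC and NRG1 were close to silent in all 4 libraries. ERRFI1 was the most abundant of the 10 genes per length and ERBB2 the next. The main test was limma on log2(FPKM + 1) over all genes with a mean of at least 1 FPKM, calling a gene at a Benjamini-Hochberg adjusted p under 0.05 among 14306 genes. Of the 10 genes, 4 passed the filter (EGFR, ERBB2, HBEGF and ERRFI1) and 6 did not. Among the 4, 1 was called higher and 1 lower, in a comparison that called 30.7% of all tested genes higher and 28.4% lower. In all 4 the ETS1 values lay outside the range of the control values, as they did for 82% of all tested genes. The median log2 change of the 4 was 0.13, against 0.016 over all tested genes, and their median absolute change was 0.17, against 0.20. The share of called and separated genes was so large throughout the transcriptome that these counts do not set the EGF genes apart from it.

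**Figure D1:**
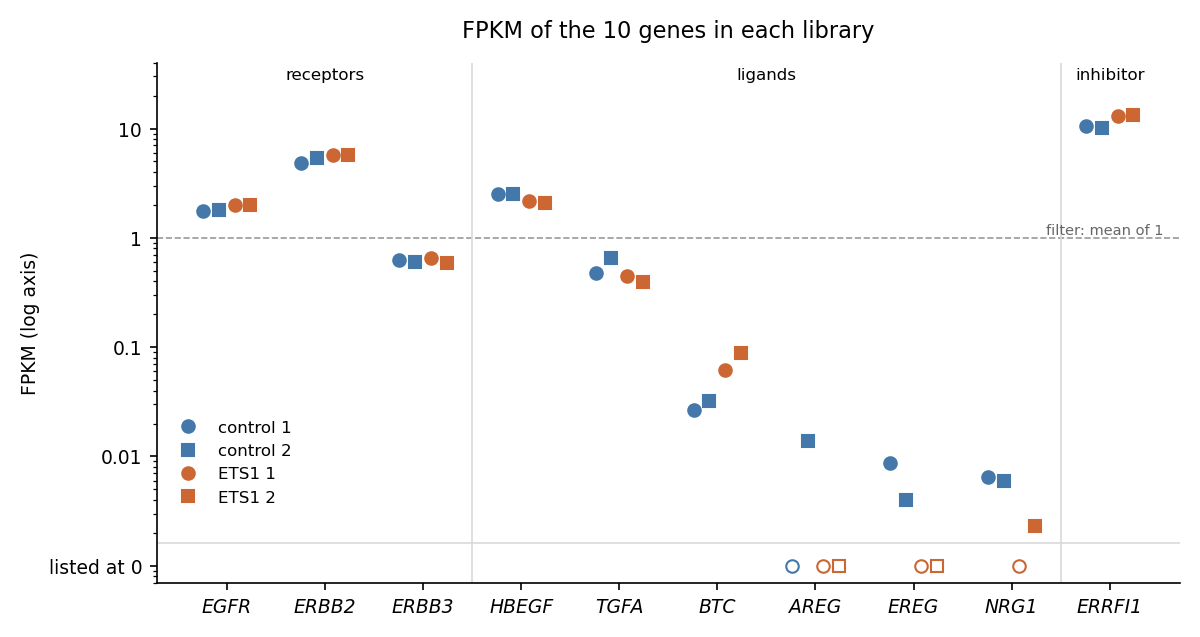
FPKM on a log axis (y) of the 10 genes (x) in the 2 control libraries (blue) and the 2 ETS1 libraries (orange), circles for library 1 and squares for library 2, with open symbols at the foot for values listed at 0 and the dashed line at the filter of 1 FPKM. ERRFI1 lies near 10 to 13 FPKM, ERBB2 at 4.80 to 5.79, EGFR and HBEGF near 2, and AREG, EREG and NRG1 at or below 0.0138 FPKM.

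The receptor genes were expressed in the order ERBB2, EGFR, ERBB3 in every library. ERBB2 (chromosome 17, 39687914 to 39730426, GENCODE 29 on GRCh38, as for all gene positions here) was listed at 4.80 and 5.38 FPKM in the controls and 5.77 and 5.79 FPKM in the ETS1 libraries. Both ETS1 values were higher than both control values, and the controls differed from each other by more than the higher of them differed from either ETS1 library. The means were 5.09 ± 0.409 (SD, n = 2) and 5.78 ± 0.0153 FPKM (SD, n = 2), a ratio of 1.14. The log2 change on the log2(FPKM + 1) scale was 0.16 (standard error 0.056, 95% confidence interval 0.011 to 0.30), and it did not pass the threshold after adjustment (limma, adjusted p = 0.0643). Without control library 1 it was 0.088 (limma, adjusted p = 0.165) and without control library 2 it was 0.22 (limma, adjusted p = 0.0179), so the size of the difference depended on which control was kept.

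The ERBB2 difference passed in tests that use read numbers. From the FPKM values 2000 and 2450 ERBB2 reads were recovered in the controls and 3412 and 3379 in the ETS1 libraries. With voom on such reads the log2 change was 0.18 (adjusted p = 0.00947), in a fit that called 33.8% of 14255 genes higher and 29.8% lower. The authors' deposited table lists ERBB2 at a log2 fold change of 0.15 (adjusted p = 0.0403), where it calls 25.3% of 15683 genes higher and 25.9% lower. The ERBB2 gene span overlaps MIEN1 and PGAP3 on the other strand, and the use of strand in counting is not given in the sources used here. MIEN1 was listed at 21.3 and 20.4 FPKM in the controls and 19.9 and 18.6 FPKM in the ETS1 libraries, the opposite direction to ERBB2, and PGAP3 at 4.18 to 4.33 FPKM in all 4 libraries.

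EGFR (chromosome 7, 55019021 to 55211628), the receptor of EGF, was listed at 1.78 and 1.81 FPKM in the controls and 2.01 and 2.00 FPKM in the ETS1 libraries. The groups did not overlap, and the replicates of each lay close together. The means were 1.79 ± 0.0212 and 2.01 ± 0.00578 FPKM (SD, n = 2 each), a ratio of 1.12. The log2 change was 0.11 with a 95% confidence interval of -0.023 to 0.24 and did not pass (limma, adjusted p = 0.125). With 931 and 1035 reads against 1496 and 1470, voom gave a log2 change of 0.16 with an interval of 0.047 to 0.28 (adjusted p = 0.0188), while the authors' deposited table lists 0.13 with an adjusted p of 0.163. In the controls EGFR stood at percentile 15.7 of the tested genes by FPKM, where ERBB2 stood at percentile 44.2 and ERRFI1 at 64.9.

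ERBB3 (chromosome 12, 56076799 to 56103505), the receptor for neuregulins, was listed at 0.627 and 0.597 FPKM in the controls and 0.655 and 0.588 FPKM in the ETS1 libraries. The groups overlapped. ERBB3 lay under the filter of 1 FPKM, and its 447 control and 613 ETS1 reads gave a ratio per library depth of 1.02 with a 95% interval of 0.899 to 1.15, which covers counting error only. The authors' deposited table lists a log2 fold change of 0.00051 (adjusted p = 0.999), and voom at that table's filter gave 0.023 with an interval of -0.22 to 0.26 (adjusted p = 0.870).

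**Figure D2:**
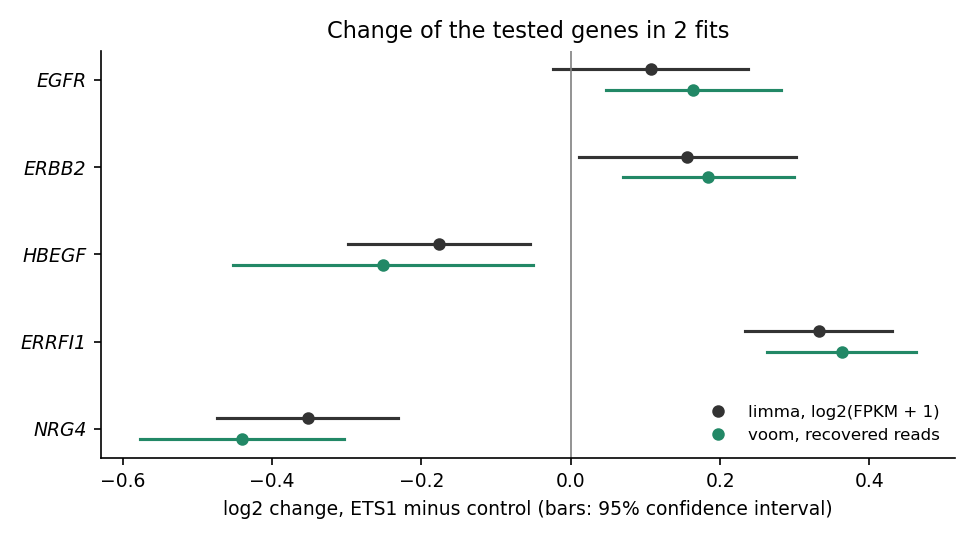
Log2 change, ETS1 minus control (x), with 95% confidence intervals, of the genes above the filter and of the related ligand NRG4, by limma on log2(FPKM + 1) (black) and by voom on recovered reads (green). ERRFI1 lies right of 0 and HBEGF and NRG4 left of 0 in both fits, while the EGFR interval crosses 0 in the first fit and not in the second.

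HBEGF was the one EGFR ligand above 1 FPKM. HBEGF (chromosome 5, 140332843 to 140346631, minus strand), whose product also serves as the diphtheria toxin receptor in its membrane form, was listed at 2.54 and 2.53 FPKM in the controls and 2.16 and 2.10 FPKM in the ETS1 libraries. Both ETS1 values lay below both controls, and the gap was larger than the spread within either group. In bulk RNA, fewer cells that make a transcript and less of it per cell cannot be told apart. The means were 2.54 ± 0.00479 and 2.13 ± 0.0414 FPKM (SD, n = 2 each), a ratio of 0.839. HBEGF fell by 0.18 on the log2(FPKM + 1) scale, with a standard error of 0.047 (limma, adjusted p = 0.0275). The reads behind it were few, 310 and 338 in the controls and 374 and 359 in the deeper ETS1 libraries. The call was lost when any 1 of the 4 libraries was left out, with log2 changes of -0.19 to -0.16. It was also lost without a filter (limma, adjusted p = 0.0721) and with a block for the library number (limma, adjusted p = 0.0668). The authors' deposited table lists -0.22 with an adjusted p of 0.115. The tested genes of chromosome 5 had a median change of 0.094, and relative to that median HBEGF fell by 0.27 (limma, adjusted p = 0.00432).

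TGFA (chromosome 2, 70447280 to 70554193, minus strand), a ligand that many carcinomas make for their own EGFR, was listed at 0.479 and 0.647 FPKM in the controls and 0.446 and 0.391 FPKM in the ETS1 libraries. The groups did not overlap, but the controls differed from each other by more than the lower of them differed from either ETS1 library. TGFA was under the filter, and in the fit without a filter its log2 change was -0.14 (limma, adjusted p = 0.335). The recovered reads, 238 in the controls together and 237 in the deeper ETS1 libraries, gave a ratio per library depth of 0.739 with a counting interval of 0.615 to 0.888. That interval leaves out the spread between the controls, whose reads were 96 and 142.

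BTC, the gene of betacellulin, was listed at 0.0264 and 0.0321 FPKM in the controls and 0.0619 and 0.0878 FPKM in the ETS1 libraries. These values rest on 3, 4, 10 and 14 reads. The ratio per library depth was 2.54 with a 95% counting interval of 1.06 to 6.99, and without a filter the log2 change was 0.062 (limma, adjusted p = 0.132). BTC was therefore at trace level in both groups, and a change was not established.

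AREG, EREG and NRG1 were at or below 0.0138 FPKM in every library. AREG (amphiregulin) was listed at 0.0138 FPKM in control library 2, which is 1 read, and at 0 in the other 3 libraries. A gene name AREGB, which RefSeq gives as a synonym of AREG, had its own entry with 0, 2, 1 and 0 reads, and reads that fit both copies may have been split or dropped by the authors' counting, so the AREG level is uncertain. EREG (epiregulin) was listed at 0.00864 and 0.00395 FPKM in the controls, from 2 and 1 reads, and at 0 in both ETS1 libraries. NRG1 (neuregulin 1) was listed at 0.00647 and 0.00591 FPKM in the controls and at 0 and 0.00231 FPKM in the ETS1 libraries. Its reads are the smallest whole numbers that give these values, at a length of 7625 bases against 11328 bases of exons in GENCODE 29, and multiples of them also would. A difference in these ligands was not detectable at this depth. AREG (74445134 to 74455009), EREG (74365143 to 74388751), BTC (74744759 to 74794686) and the related ligand EPGN (74308473 to 74315307) are neighbours on chromosome 4, and EPGN, epigen, was also at trace level, at 0.0273 and 0.0250 FPKM in the controls and 0.00962 and 0 FPKM in the ETS1 libraries.

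The receptor inhibitor showed the clearest change of the 10 genes. ERRFI1 (chromosome 1, 8004404 to 8026308, minus strand), also called MIG6, binds the kinase domain of active EGFR and ERBB2, blocks it and promotes receptor degradation, and its transcription is known to be raised by EGFR-ERK signalling as negative feedback. It was listed at 10.5 and 10.1 FPKM in the controls and 13.0 and 13.4 FPKM in the ETS1 libraries. The groups were well apart compared with the spread within each. The means were 10.3 ± 0.329 and 13.2 ± 0.324 FPKM (SD, n = 2 each), a ratio of 1.28. ERRFI1 rose by 0.33 on the log2(FPKM + 1) scale, with a standard error of 0.038 and a 95% confidence interval of 0.23 to 0.43 (limma, adjusted p = 0.00224). It passed in each of the 16 alternatives. The reads were 1783 and 1863 in the controls and 3123 and 3190 in the ETS1 libraries, and voom gave 0.36 (adjusted p = 4.5e-05). The authors' deposited table lists ERRFI1 at a log2 fold change of 0.33 (adjusted p = 1.49e-06).

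Further genes (ERBB4, EGF, EPGN, NRG2, NRG3 and NRG4) complete the receptor and ligand family, and 1 of them, NRG4, was above the filter. NRG4 (chromosome 15, 75935969 to 76059795, minus strand), a neuregulin that binds ERBB4, was the most abundant ligand transcript of the family, at 4.60 and 4.58 FPKM in the controls and 3.51 and 3.25 FPKM in the ETS1 libraries. The ETS1 values lay below the controls by several times the spread within either group. NRG4 fell by 0.35 on the log2(FPKM + 1) scale (standard error 0.047, limma, adjusted p = 0.00336), and the authors' deposited table lists -0.44 with an adjusted p of 4.75e-06. The tested genes of chromosome 15 had a median change of -0.23, and relative to it the NRG4 change was -0.12 and no longer passed (limma, adjusted p = 0.0587). The NRG4 span also overlaps FBXO22 on the other strand, an abundant gene whose mean fell from 28.7 to 22.5 FPKM (log2 change -0.34, limma, adjusted p = 0.00134). How many NRG4 reads came from FBXO22 was not tested.

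EGF itself, the ligand that names the family, went from trace to low level. It was listed at 0.0324 and 0.0259 FPKM in the controls and 0.180 and 0.214 FPKM in the ETS1 libraries, from 8, 7, 63 and 74 reads. Both ETS1 libraries were far above both controls. The ratio per library depth was 6.78 with a 95% counting interval of 3.97 to 12.4, and in the fit without a filter EGF rose (log2 change 0.22 on a scale that understates low genes, limma, adjusted p = 0.0187). NRG3, a neuregulin known mainly from the nervous system, moved the other way, from 0.386 and 0.344 FPKM to 0.103 and 0.153 FPKM. Its 79 and 77 control reads against 30 and 44 gave a ratio of 0.352 with an interval of 0.263 to 0.467, and without a filter NRG3 fell by 0.27 (limma, adjusted p = 0.0301). Both genes stayed well under 1 FPKM in every library.

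The neuregulin NRG2 and the receptor ERBB4 were also under the filter. NRG2 was listed at 0.638 and 0.668 FPKM in the controls and 0.830 and 0.790 FPKM in the ETS1 libraries. The groups did not overlap, but the authors' deposited table lists 0.19 with an adjusted p of 0.277, and voom at that table's filter gave 0.31 (adjusted p = 0.0667). ERBB4, a receptor for neuregulins and BTC, was listed at 0.249 and 0.193 FPKM in the controls and 0.157 and 0.156 FPKM in the ETS1 libraries. Its reads gave a ratio per library depth of 0.711 with a counting interval of 0.592 to 0.855, and the fit without a filter did not call it (log2 change -0.078, limma, adjusted p = 0.243).

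The summed levels of the family are given as listed. The 11 ligand genes summed to 8.75 and 8.88 FPKM in the controls and 7.30 and 6.99 FPKM in the ETS1 libraries. Over the 6 ligands of the set alone the difference was -0.524 FPKM, against -1.67 FPKM for all 11. NRG4, with a control mean of 4.59 and an ETS1 mean of 3.38 FPKM, carried most of the lower sum, with the limits given above for its call, while EGF, BTC and NRG2 were listed higher. The 7 ligands that bind EGFR summed to 3.11 and 3.28 against 2.86 and 2.79 FPKM, and the 4 neuregulins to 5.63 and 5.60 against 4.44 and 4.20 FPKM. As listed, with any reads of FBXO22 included, NRG4 and HBEGF had the highest shares in every library, NRG4 with 52.6% and 51.6% of the summed FPKM in the controls and 48.1% and 46.5% in the ETS1 libraries, and HBEGF with 29.1% and 28.5% against 29.6% and 30.0%. The HBEGF share was thus slightly higher although the HBEGF level was lower, since the total fell with it. For these sums and shares the exact two-sided permutation test over the 4 libraries cannot go below p = 0.333, the value it gave for the summed ligands, for each of these ligand shares and for the summed receptors.

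The 4 receptor genes summed to 7.45 and 7.98 FPKM in the controls and 8.59 and 8.54 FPKM in the ETS1 libraries. ERBB2, which did not pass the main test, had the largest part in that difference, and ERBB4 was listed lower. ERBB2 made up 64.4% and 67.4% of the receptor sum in the controls and 67.1% and 67.8% in the ETS1 libraries, and EGFR 23.9% and 22.7% against 23.4% and 23.5%, with overlapping groups for both. The ERBB3 shares also overlapped, at 8.41% and 7.48% against 7.63% and 6.89%. The ERBB4 share did not overlap, at 3.34% and 2.42% in the controls and 1.83% in both ETS1 libraries (exact permutation p = 0.333, the smallest possible). The ratio of ERBB2 to EGFR was 2.70 and 2.97 in the controls and 2.87 and 2.89 in the ETS1 libraries (exact permutation p = 1).

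**Figure D3:**
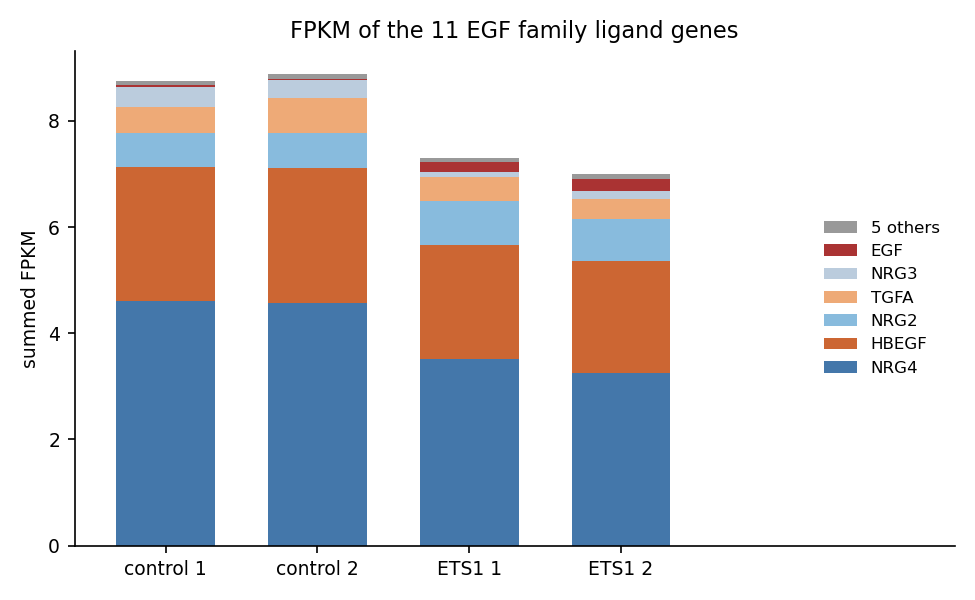
Summed FPKM (y) of the 11 ligand genes of the EGF family in each library (x), stacked by gene, with the 5 least abundant genes (AREG, EREG, BTC, NRG1 and EPGN) as 1 grey segment. The control bars reach 8.75 and 8.88 FPKM and the ETS1 bars 7.30 and 6.99 FPKM, with NRG4 and HBEGF the largest segments in each.

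Genes that act around the receptors were described from 4 lists. Of 12 genes for ligand shedding and trafficking 11 were tested, 7 rose, 2 fell and 2 did not pass the test (limma), with a median log2 change of 0.16. Across all tested genes 30.7% were called higher. With any 1 library left out fewer genes of the list, and fewer of all genes, were called higher. ADAM19, 1 of the genes that rose, had a control mean under 1 FPKM and passed the filter only through the ETS1 libraries. ADAM9, a membrane metalloprotease, rose from 8.62 ± 0.282 to 12.3 ± 0.886 FPKM (log2 change 0.47, limma, adjusted p = 0.00258). The iRhom genes RHBDF1 and RHBDF2, whose products carry the sheddase ADAM17 to the cell surface, moved in opposite directions. RHBDF1 rose from 3.90 ± 0.0361 to 5.15 ± 0.0271 FPKM (0.33, limma, adjusted p = 0.00216) and RHBDF2 fell from 3.05 ± 0.0156 to 2.25 ± 0.0447 FPKM (-0.32, limma, adjusted p = 0.00401). BACE1, a protease that can cut neuregulin precursors, rose from 4.85 ± 0.205 to 6.33 ± 0.225 FPKM (0.33, limma, adjusted p = 0.00398). The main sheddases ADAM17 and ADAM10 were added by their role after the values were seen: ADAM17 rose from 3.21 to 4.16 FPKM (0.29, limma, adjusted p = 0.00390), and ADAM10 was at 4.99 and 5.14 FPKM (0.035, limma, adjusted p = 0.510).

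Of 32 genes that act in receptor inhibition, sorting or degradation or in limiting receptor signalling (the inhibitor list), 26 were tested. Of these, 11 rose, 7 fell and 8 did not pass (limma), with a median log2 change of 0.088. Their effects on the receptors differ in direction, so the counts give no direction for receptor inhibition. SOCS5 and SOCS4, adaptors of ubiquitin ligases that can target EGFR, rose from 3.03 to 4.87 FPKM (0.54, limma, adjusted p = 0.000782) and from 7.77 to 11.5 FPKM (0.52, limma, adjusted p = 0.00494). CD2AP, which links the EGFR ubiquitin ligase CBL to endocytosis, rose from 4.21 to 6.58 FPKM (0.54, limma, adjusted p = 0.00164). RASA1, a RAS GTPase-activating protein, rose from 3.64 to 5.18 FPKM (0.42, limma, adjusted p = 0.00221). With either ETS1 library left out fewer genes of the list, and fewer of all genes, were called in both directions. CBLB, 1 of the genes that rose, had a control mean under 1 FPKM and passed the filter only through the ETS1 libraries. Relative to the chromosome medians 7 genes of the list were higher and 7 lower, in a fit that called 3635 of all genes higher and 3742 lower.

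Of 44 adaptor and kinase genes downstream of the receptors, 40 were tested, 20 rose, 3 fell and 17 did not pass (limma), with a median log2 change of 0.18. Without ETS1 library 2 fewer genes of the list, and fewer of all genes, were called higher and lower. Relative to the chromosome medians 22 rose and 5 fell, in a fit that called 3635 of all genes higher and 3742 lower. SOS1, the exchange factor that loads RAS with GTP, rose from 5.42 to 8.13 FPKM (0.51, limma, adjusted p = 0.000778). JAK1, a tyrosine kinase that activates STAT proteins, rose from 14.2 to 19.9 FPKM (0.46, limma, adjusted p = 0.000632), and NRAS from 24.4 to 33.7 FPKM (0.46, limma, adjusted p = 0.00680).

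Of 34 names of transcripts that respond to ERK signalling, 33 were in the table and 23 were tested, of which 12 rose, 3 fell and 8 did not pass (limma), with a median log2 change of 0.16. Not tested were, among others, PHLDA1, SPRY4, DUSP4, DUSP6, ETV4, ETV5, EGR2, EGR3, FOSB and VGF. Voom at the filter of 1 FPKM called 12 of the list higher and 3 lower. At the filter of the authors' table voom called 12 higher and 6 lower, beside 5213 and 4512 of all genes, so the falls depended on the filter. The authors' deposited table calls 10 of the list higher and 6 lower. Of the genes that rose, IL8 and FOSL1 had control means under 1 FPKM and passed the filter only through the ETS1 libraries, so they had to be higher there to be tested. KLF10, a zinc finger transcription factor, rose from 6.52 ± 0.0309 to 17.1 ± 0.887 FPKM (1.26, limma, adjusted p = 0.000428). EGR1, an immediate early transcription factor, rose from 2.26 ± 0.0358 to 6.03 ± 0.0180 FPKM (1.11, limma, adjusted p = 0.000435). IL8, a neutrophil chemokine, was at 0.354 ± 0.0223 and 3.17 ± 0.156 FPKM (1.62, limma, adjusted p = 0.000439), with a log2 change of 3.15 by voom, which adds no 1 FPKM. CCND1, the gene of cyclin D1, fell from 7.21 ± 0.161 to 3.78 ± 0.0487 FPKM (-0.78, limma, adjusted p = 0.000482). These genes respond to many other signals, and no measurement of receptor or ERK activity was used here.

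**Figure D4:**
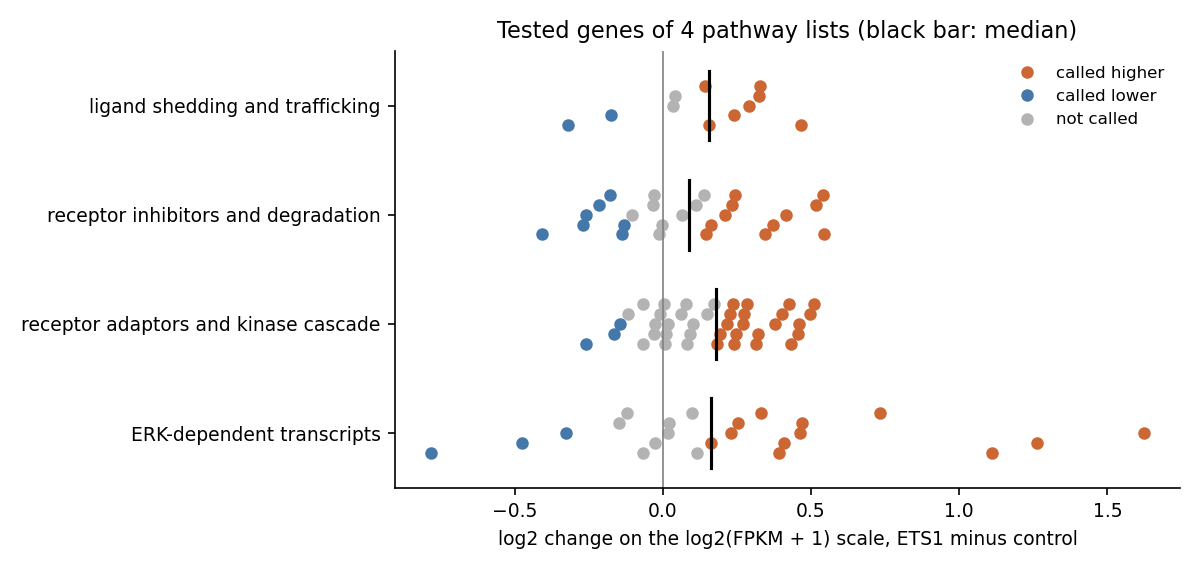
Log2 change, ETS1 minus control (x), of each tested gene in the 4 lists (y), coloured by its limma call, with a black bar at the list's median. The medians lie between 0.088 and 0.18, and IL8, KLF10 and EGR1 form the far right of the bottom row.

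Called higher were 63.6% of the tested shedding genes, 42.3% of the inhibitors, 50.0% of the adaptors and kinases and 52.2% of the ERK-responsive transcripts, beside 30.7% of all tested genes. Called lower were 18.2%, 26.9%, 7.50% and 13.0% of them, beside 28.4% of all tested genes. The lists were chosen with earlier results of these data known, so these shares are descriptions and no independent comparison. Those of the shedding, inhibitor and ERK-responsive lists include genes that passed the filter only through the ETS1 libraries (ADAM19, CBLB, IL8 and FOSL1), and the adaptor and kinase list holds no such gene.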

How the data were processed

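Total RNA of 2 control and 2 ETS1 libraries was sequenced. For the authors' processing, HISAT2, HTSeq and DESeq2 with the builds hg38 and GRCh38 are named in the submitters' processing notes. Their versions, the gene models and whether counting used strand are not given in the sources used here. Gene levels are FPKM as deposited by the authors. A second deposited table gives, per the file headers, the authors' mean normalized signal (a mean count after scaling), log2 fold changes, and p-values with adjusted p-values. It holds the 16652 genes with a mean of at least 0.5 FPKM, and its adjusted p is missing for 969.

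The main fit was limma 3.58.1 in R 4.3.3 (lmFit, eBayes with an intensity trend) on log2(FPKM + 1), group only, two-sided, for 14306 genes with a mean of at least 1 FPKM. Each gene had 2 residual and 2.84 prior degrees of freedom. The design allowed for raw counts, and the values were FPKM. On this scale the change of low genes is understated. Whole reads were recovered from FPKM and the authors' mean normalized values for 99.6% of the genes in the second table, within 0.001 reads. Voom on these called 4824 genes higher and 4247 lower. For genes outside it, the smallest whole solution was taken. Ratios of low genes have exact binomial intervals of 95% for counting error only. Depth was 40333279 to 57237290 reads a library. The fit was tested on simulated data.

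The genes of the set and the lists were chosen with earlier results of these data known. Named are all genes of the set, ETS1, the other ligands and receptors of the family and the 4 genes of each list with the largest absolute change, of which some are not reported here. Positions come from GENCODE 29 by name and sequences from RefSeq. Alternatives were other pseudocounts, filters and scalings, no variance trend, a replicate block, removal of chromosome medians, voom, the authors' values and each library left out. Voom at the filter of the authors' table was added after seeing the data.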

Additional observations from a re-analysis of the deposited data

How the results depend on the processing

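ERRFI1 kept its direction and its call in all 16 alternatives (adjusted p 1.49e-06 to 0.0165). HBEGF was lower in all 15 that tested it and kept its call in 8 (adjusted p 0.00432 to 0.137). EGFR passed in 3 of 15 (adjusted p 0.0188 to 0.327) and ERBB2 in 4 of 16 (adjusted p 0.00886 to 0.240), with no change of sign. Where these moved, the cause was not tested. Of the 10 genes, 2 were called higher without the variance trend, where 4365 of all genes were. The authors' deposited table also calls 2 of the 10 higher, with 3966 of all genes. Voom on recovered reads called 3 of the 10 and 4824 of all genes higher. At the filter of the authors' table, which was chosen after seeing the data, voom called 3 of the 10 and 5213 of all genes higher. No gene of the set was called lower (0) without a filter, at a mean of at least 5 FPKM (HBEGF is then not tested), under the replicate block, or in the authors' deposited table. Of all genes, 3238, 3000, 3571 and 4060 were called lower in these, in that order.

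Of all genes, 2562 were called higher at a mean of at least 5 FPKM, where fewer genes are tested, and 2845 to 3962 with a library left out, the lowest without ETS1 library 2. The shedding list had 3 genes higher and 1 lower at 5 FPKM, 1 lower after quantile normalization, and 4 to 5 higher and 1 to 2 lower with a library left out. The inhibitor list had 6 higher without a filter, 6 at 5 FPKM, 7 after chromosome medians were removed and 6 to 10 with a library left out, and 3 lower without a filter and 3 to 6 with a library left out. The adaptor and kinase list had 5 lower after chromosome medians were removed and 1 to 3 with a library left out. The ERK-responsive list had 6 lower by voom at the filter of the authors' table and 6 in the authors' deposited table. Of all genes, 4512 and 4060 were called lower in these 2. Without a filter 3622 of all genes were higher and 3238 lower, and after chromosome medians were removed 3635 and 3742. At 5 FPKM 3000 were lower, and after quantile normalization 3898. Among these ranges with a library left out the lowest counts came without ETS1 library 2, and for the inhibitors called lower also without ETS1 library 1.

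With only the genes of the set in the sums, the summed ligand difference was -0.524 FPKM, the HBEGF share differed by 0.511 percentage points and the EGFR share by -0.0703, against 0.187 with ERBB4 included. The EGFR share difference ranged from -0.406 (without control library 2) to 0.780 with a library left out, so it has no stable sign. The ERBB2 share difference was 1.56 percentage points with all libraries. It was 0.0389 without control library 1 and 3.07 without control library 2.

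Deviations of same-numbered libraries from their group means had a correlation of -0.0456 over genes. With 2 libraries a group, this value cannot show whether same-numbered libraries shared a culture or a preparation. With the replicate block 1 gene of the set was called higher and 0 lower, beside 3712 and 3571 of all genes, and HBEGF had an adjusted p of 0.0668 (limma). Depth limits AREG and EREG, with 0 to 2 reads a library, NRG1, and BTC, with 3 to 14.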
